A study of Mus musculus with 12 samples.

Results

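The 32 genes described here build, sense, take up, store or export cholesterol in the mouse liver. They were taken from a written list of such genes, and each had a deposited value of at least 10 in at least 3 of 12 liver RNA-seq libraries, out of 47263 genes in the table and 13871 that met the same minimum. By role they are 8 genes of the mevalonate arm (Acat2, Hmgcs1, Mvk, Pmvk, Mvd, Idi1, Fdps, Ggps1), 12 of the sterol arm (Fdft1, Sqle, Lss, Cyp51, Tm7sf2, Lbr, Msmo1, Nsdhl, Hsd17b7, Ebp, Sc5d, Dhcr7), 4 that control the transcription factor SREBP2 (Srebf2, Scap, Insig1, Insig2), 4 of uptake and intracellular transport (Mylip, Npc1, Npc2, Stard4), 1 of storage (Soat2) and 3 of export (Abcg5, Abcg8, Abca1). All 32 passed the minimum by the way the list was made, 31 of them with 10 or more in all 12 libraries and Fdps in 11.

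Hepatocytes make cholesterol from acetyl-CoA, first through mevalonate to isoprenoid units and squalene, and then from squalene through lanosterol to sterols. When membrane sterol is low, SCAP carries SREBP2 from the endoplasmic reticulum to the Golgi, where it is cut to release a factor that switches on the synthesis genes. INSIG proteins hold SCAP back when sterol is high. The liver also secretes cholesterol into bile through the partner transporters ABCG5 and ABCG8, and hepatocytes handle sterol from endocytosed lipoproteins through the lysosomal proteins NPC1 and NPC2.

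The study asked, in its design text, what SIRT2, a deacetylase, does in liver cancer formation, and each of 4 groups held 3 libraries of whole liver RNA: Sirt2 knockout (KO) livers given MET/CAT, wild-type (WT) livers given MET/CAT, KO livers given GFP and WT livers given GFP. MET/CAT stands for the plasmids pT3-EF1a-c-MET and pT3-EF1a-DN90-β-Catenin, given with HSB2, the sleeping beauty transposase that inserts them into hepatocyte genomes, by hydrodynamic tail-vein injection at 6 to 8 weeks of age, with livers taken 8 weeks later. The knockout is described as hepatocyte-specific and as a liver knockout; the sources used here do not give its Cre driver, the exons deleted or the make-up of the GFP injection. Groups follow the sample titles, since the treatment labels name MET/CAT for all KO and GFP for all WT libraries, against the titles of the KO GFP and WT MET/CAT groups, so every plasmid comparison rests on the titles. Nothing says that the 3 libraries of a group came from separate mice, and p-values measure only the spread between these libraries.

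Sirt2 itself had 248, 234 and 201 normalized reads in KO MET/CAT livers and 1068, 943 and 908 in WT MET/CAT livers, and 233, 183 and 126 in KO GFP livers against 824, 924 and 726 in WT GFP livers, so the genotype labels held in all 12 libraries. Libraries held 18208879 to 24352961 reads in genes, recovered from the deposited values. KO GFP replicate 3 stood apart from the other libraries on the main axis of variation (a score of -88.95, where the others lay between -33.2 and 52.8), and its values rose with transcript length across genes (Spearman rho = 0.49). The other libraries had length trends from -0.37 in WT GFP replicate 2 to 0.20 in WT MET/CAT replicate 2. Hepatocyte markers such as Alb and Ttr summed to 2124673 to 3525231 normalized reads in every library. Neutrophil markers summed to 409 to 3051 normalized reads in KO MET/CAT and 312 to 1053 in WT MET/CAT livers, against 57.0 to 81.6 in KO GFP and 77.1 to 173 in WT GFP livers. Macrophage markers summed to 6598 to 9101 in KO MET/CAT and 5939 to 8448 in WT MET/CAT livers, and to 1433 to 4448 in KO GFP livers and 7281 to 10175 in WT GFP livers. In bulk liver, fewer cells of a type and less RNA per cell cannot be told apart.

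DNA before the start sites is shown for Insig2 and Abcg8, which the MET/CAT comparison turns on, and for 2 SREBP2 targets beside them, from RefSeq (GRCm38.p6). Of 32 members, 26 had such a window of 300 bases (250 before and 50 after the start). For Fdps, Fdft1, Sqle, Npc1, Stard4 and Soat2 no window was found among the sequences used here. Letters were searched on both strands for TCACNCCAC, a core form of the sterol regulatory element that SREBP2 binds, and for CCAAT, the box bound by NF-Y, a usual partner of SREBP2. CCAAT was in 23 of the 26 members (69.7% of their 33 windows) and in 37.4% of 32851 windows of all genes. TCACNCCAC was in 1 of the 26 members, Hmgcs1, and in 1.24% of all windows. These are letter matches within short windows and no more than that.

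The 250 bases before 5 of these start sites follow, 5′ to 3′ along each gene, in lower case with each match to the 2 motifs in capitals. A CCAAT box on the other strand reads ATTGG here. Insig2 is shown at its farthest upstream start, chr1:121332590-121332839 on the minus strand, which holds 3 copies of CCAAT, and at a start farther downstream, chr1:121328025-121328274, which holds 0; mouse liver is known to use more than 1 Insig2 start, and the values below are 1 sum per gene over all of them. Insig1 (chr5:28071162-28071411, plus strand) and Hmgcs1 (chr13:119690101-119690350, plus strand) are shown as sterol-controlled genes to set beside it, and Abcg8 (chr17:84682871-84683120, plus strand) because the window at this start overlaps that of Abcg5.
Insig2 upstream start: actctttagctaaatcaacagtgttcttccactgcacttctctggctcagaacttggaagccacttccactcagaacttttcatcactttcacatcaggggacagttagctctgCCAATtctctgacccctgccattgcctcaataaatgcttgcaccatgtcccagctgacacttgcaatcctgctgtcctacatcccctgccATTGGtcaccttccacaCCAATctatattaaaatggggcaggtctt
Insig2 downstream start: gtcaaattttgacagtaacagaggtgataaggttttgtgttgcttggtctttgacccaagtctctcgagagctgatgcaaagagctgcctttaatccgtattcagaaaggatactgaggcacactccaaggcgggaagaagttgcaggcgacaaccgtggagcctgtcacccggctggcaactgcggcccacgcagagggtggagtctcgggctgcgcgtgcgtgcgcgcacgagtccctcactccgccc
Insig1: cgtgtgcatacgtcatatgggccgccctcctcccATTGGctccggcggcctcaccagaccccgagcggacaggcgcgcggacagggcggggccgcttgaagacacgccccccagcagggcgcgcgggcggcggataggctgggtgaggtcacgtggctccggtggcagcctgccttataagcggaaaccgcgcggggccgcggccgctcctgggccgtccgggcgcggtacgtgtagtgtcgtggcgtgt
Hmgcs1: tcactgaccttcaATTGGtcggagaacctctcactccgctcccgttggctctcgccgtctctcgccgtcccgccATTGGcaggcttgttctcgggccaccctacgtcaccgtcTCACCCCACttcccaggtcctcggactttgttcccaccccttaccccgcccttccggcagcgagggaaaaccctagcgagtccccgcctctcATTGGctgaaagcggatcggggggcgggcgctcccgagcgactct
Abcg8: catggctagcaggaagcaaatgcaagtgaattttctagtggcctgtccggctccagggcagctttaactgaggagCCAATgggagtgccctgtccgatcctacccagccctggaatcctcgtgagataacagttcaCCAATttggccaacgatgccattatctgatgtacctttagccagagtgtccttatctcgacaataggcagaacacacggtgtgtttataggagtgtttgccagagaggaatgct
Hmgcs1 holds the only TCACNCCAC match, 137 to 129 bases before its start, with 3 CCAAT boxes around it. RefSeq gives Abcg8 more than 1 start. The start shown, at 84683121, lies 110 bases from that of Abcg5 on the other strand, and the windows of the pair share 209 bases (chr17:84682962-84683170). A farther upstream Abcg8 start, at 84676302, lies within Abcg5, and the 250 bases before it hold 0 matches.

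The genes called between MET/CAT and GFP livers act in SREBP2 control, sterol transport and export. Averaged over both genotypes, Insig2, which restrains SREBP2 processing, rose 3.07-fold with MET/CAT, and Stard4 (a sterol carrier between membranes), Npc1 (lysosomal cholesterol exit), Abcg5 and Abcg8 (sterol export to bile) fell. That is 5 of 32 members called, 1 higher and 4 lower, where 3.8% of all 13871 genes were called (2.4% higher and 1.4% lower). A gene was called when its Benjamini-Hochberg adjusted p over all 13871 genes was under 0.05 in limma, fitted to log2(normalized reads + 1) over all 12 libraries. Of the 32 members 14 had an unadjusted p under 0.05, beside 17.9% of all genes. None of the 20 synthesis enzymes was called in that comparison, although 18 of 20 had a value below 0 (all genes 48.1%), with a median of -0.49. An unadjusted p under 0.05 was seen for 8 of 20, 7 of them lower. The median difference of the 32 members was -0.46 on the log2 scale, beside 0.02 over all genes. In the fit as reported the lean of the enzymes was larger in KO livers, where 16 of 20 were below 0 (median -0.73). In WT livers 11 of 20 were (median -0.17). Both counts moved when single libraries were left out, and no enzyme was called in the interaction of genotype and plasmid.

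**Figure D1:**
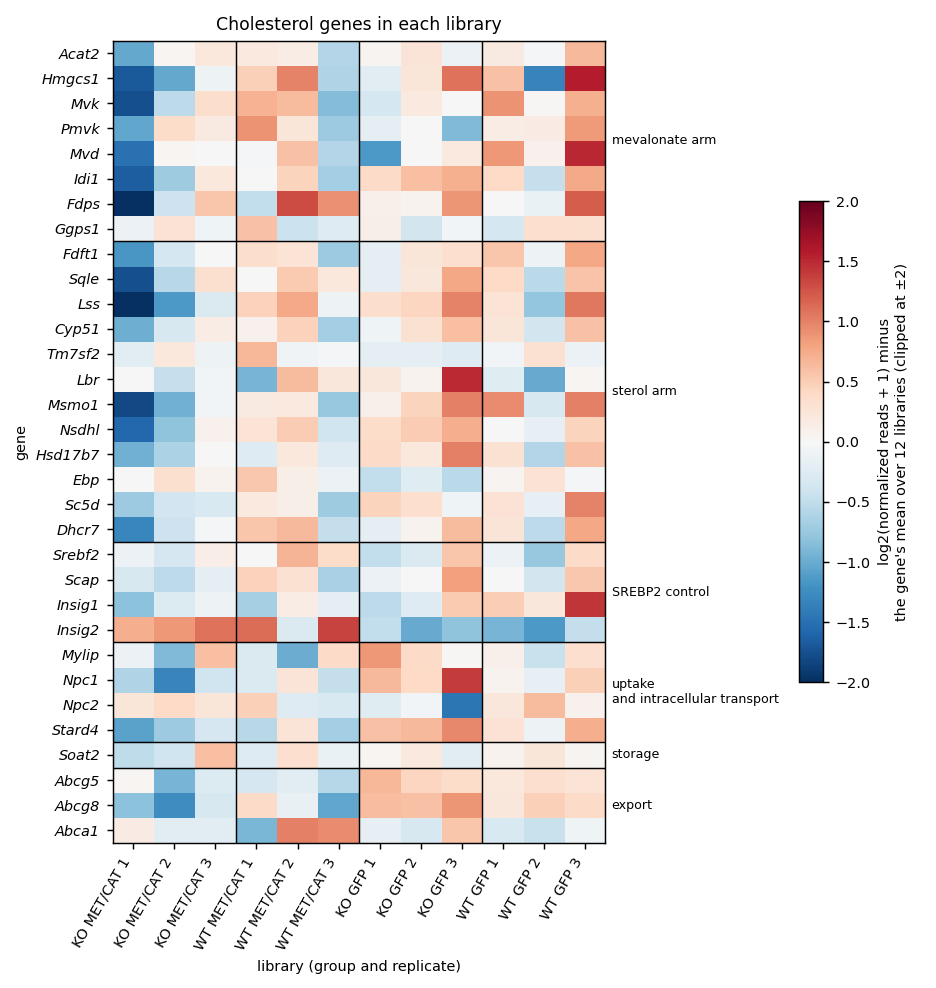
Level of each of the 32 genes (rows, by role) in each of 12 libraries (columns, by group), as log2(normalized reads + 1) minus the gene's mean over the 12 libraries, with colours clipped at 2 either way. Insig2 is above its mean in 5 of 6 MET/CAT libraries and below it in all 6 GFP libraries, and KO MET/CAT replicate 1 is the lowest library for 16 of the 20 synthesis enzymes.

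Insig2 had 3283, 3610.4 and 4234 normalized reads in KO MET/CAT livers and 4331, 1630.2 and 5093 in WT MET/CAT livers, against 1410.1, 994 and 1141 in KO GFP livers and 1043, 896 and 1423 in WT GFP livers. The gene lies at chr1:121304353-121332589 on the minus strand of GRCm38. All 6 MET/CAT libraries lay above all 6 GFP libraries, which 1.61% of genes did, and WT MET/CAT replicate 2 was the lowest of the 6. The averaged difference was 1.62 (SE 0.24) on the log2 scale, 3.07-fold, with an adjusted p of 0.00275 in limma. Insig1, the paralog of Insig2 and an SREBP2 target, did not follow it. It had 3408, 4958 and 5612 normalized reads in KO MET/CAT livers and 3809.6, 6701 and 5292 in WT MET/CAT livers, against 4202, 5016 and 8638.5 in KO GFP livers and 8448.5, 7037 and 16217 in WT GFP livers. Its highest library was WT GFP replicate 3, the groups overlapped, and the averaged difference of -0.63 (SE 0.24) was not called (limma adjusted p = 0.185). Per kilobase of transcript, Insig2 averaged 1375 normalized reads in KO MET/CAT livers and 1366 in WT MET/CAT livers, where Insig1 averaged 1728 and 1953. In KO GFP livers Insig2 averaged 438 per kilobase and Insig1 2207, and in WT GFP livers 416 and 3918.

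Srebf2, which encodes SREBP2, had 1300.5, 1119 and 1548 normalized reads in KO MET/CAT livers and 1424, 2250.3 and 1820.1 in WT MET/CAT livers, against 999.8, 1149.8 and 2064 in KO GFP livers and 1300.4, 829.5 and 1838 in WT GFP livers. The 4 groups overlapped, and the averaged difference was 0.25 (SE 0.22, limma adjusted p = 0.618). Scap, the escort of SREBP2, averaged 2442 ± 275 in KO MET/CAT and 3352 ± 1206 in WT MET/CAT livers, against 3811 ± 1439 in KO GFP and 3333 ± 1062 in WT GFP livers (normalized reads, SD, n = 3 each, as for the group values below). Its averaged difference of -0.30 was not called either. The control genes thus gave 1 call in 4, that of Insig2.

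**Figure D2:**
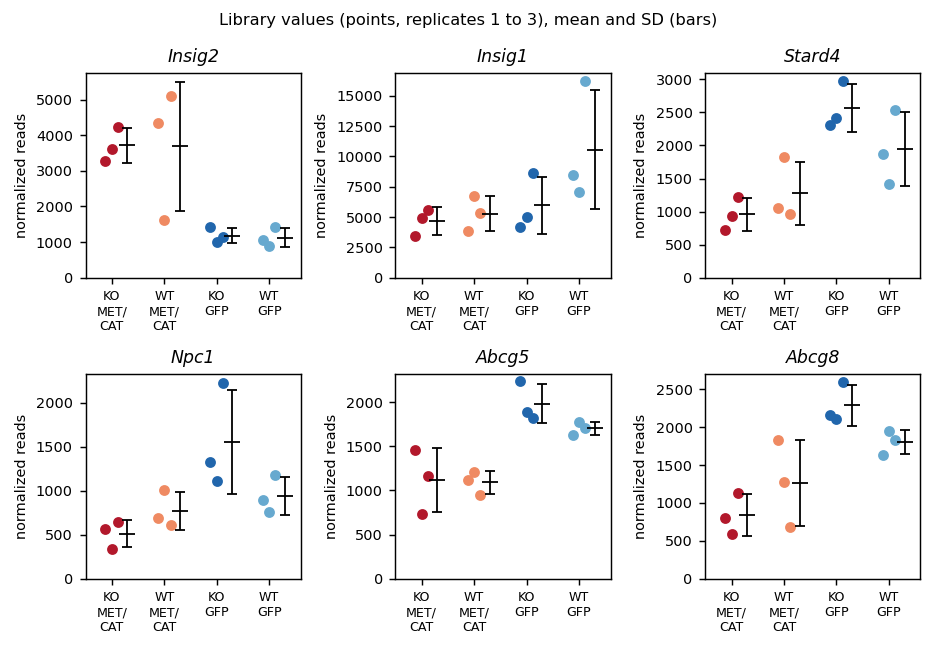
Normalized reads (vertical axes, from 0) of Insig2, Insig1, Stard4, Npc1, Abcg5 and Abcg8 in each library, by group along the horizontal axes, with the mean and SD of the 3 libraries beside the points. For Insig2 and Abcg5 the 6 MET/CAT libraries do not overlap the 6 GFP libraries, and for Stard4, Npc1 and Abcg8 only WT MET/CAT libraries reach into the GFP range.

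Stard4 had 727, 928 and 1216.5 normalized reads in KO MET/CAT livers and 1047, 1827 and 962 in WT MET/CAT livers, against 2307, 2410.1 and 2979.5 in KO GFP livers and 1869.8, 1423 and 2535 in WT GFP livers. WT MET/CAT replicate 2 was the only MET/CAT library above any GFP library, namely above WT GFP replicate 2. Its averaged difference was -1.03 (SE 0.20), with a limma adjusted p of 0.0109. Npc1 had 559, 338 and 638 normalized reads in KO MET/CAT livers and 693, 1009 and 605 in WT MET/CAT livers, against 1331, 1112 and 2229 in KO GFP livers and 890.5, 757 and 1174 in WT GFP livers. The KO groups stood clear of each other and the WT groups overlapped, with KO GFP replicate 3, the library that stands apart, the highest of all. Of its exon bases 601 overlap Rmc1 or Gm15956 on the opposite strand. Its averaged difference was -0.95 (SE 0.22, limma adjusted p = 0.0282). Npc1 was lost when any of 5 libraries was left out (KO GFP replicate 1, WT GFP replicate 1, WT GFP replicate 3, KO MET/CAT replicate 2 or WT MET/CAT replicate 3; adjusted p up to 0.0765) and was kept without KO GFP replicate 3; its difference stayed between -1.05 and -0.80 throughout. Npc2, the soluble partner that hands cholesterol to NPC1, averaged 4068 ± 260.2 in KO MET/CAT and 3353 ± 1096 in WT MET/CAT livers, against 2405 ± 1045 in KO GFP and 4187 ± 867 in WT GFP livers, and was not called (0.26, limma adjusted p = 0.602). Mylip, a ubiquitin ligase that limits lipoprotein uptake, averaged 67.8 ± 34.0 in KO MET/CAT and 59.5 ± 27.8 in WT MET/CAT livers, against 94.9 ± 28.5 in KO GFP and 69.8 ± 18.6 in WT GFP livers, a difference of -0.43 within the spread.

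Among the exporters, Abcg5 had 1456, 739 and 1169.7 normalized reads in KO MET/CAT livers and 1122, 1204 and 949.5 in WT MET/CAT livers, against 2244, 1892 and 1822 in KO GFP livers and 1631.5, 1772 and 1706 in WT GFP livers. Abcg5 lies at chr17:84658234-84683011 on the minus strand and Abcg8 at chr17:84676302-84700333 on the plus strand of GRCm38. Every MET/CAT library lay below every GFP library, which 0.872% of genes did. The averaged difference was -0.76 (SE 0.16, limma adjusted p = 0.0171). Abcg8 had 798, 591 and 1130.5 normalized reads in KO MET/CAT livers and 1826, 1272 and 684 in WT MET/CAT livers, against 2164.5, 2109 and 2601 in KO GFP livers and 1634.5, 1946 and 1834.5 in WT GFP livers. WT MET/CAT replicate 1 lay above WT GFP replicate 1, and the other MET/CAT libraries lay below all GFP libraries. Its averaged difference was -1.06 (SE 0.22, limma adjusted p = 0.0168). The exons of the pair overlap by 82 bases on opposite strands, and since the sources used here do not give the strand setting, a small share of reads may be shared. The third exporter, Abca1, which passes cholesterol to apolipoprotein A-I, did not move with the pair. It averaged 1418 ± 225 in KO MET/CAT and 2226 ± 1239.7 in WT MET/CAT livers, against 1581 ± 549 in KO GFP and 1237 ± 157 in WT GFP livers (a difference of 0.26, not called). Soat2, which esterifies cholesterol for storage, averaged 956 ± 440 in KO MET/CAT, 968 ± 219 in WT MET/CAT, 973 ± 142 in KO GFP and 1050.2 ± 81.9 in WT GFP livers, a difference of -0.12 between plasmids.

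Neutrophil markers moved with the same comparison: 6 of 6 were called higher with MET/CAT averaged over genotypes (median 3.27 on the log2 scale), with Cxcr2 at 0 in KO GFP and Mmp8 at 0 in WT GFP livers, while no hepatocyte marker of 8 was called (median 0.23). Cholangiocyte markers were higher for 4 of 4 genes (1 called), macrophage markers for 9 of 10 (1 called), and T and B lymphocyte markers lower for 6 of 6 (none called). The last 2 lists leaned differently within KO and WT livers, but none of their markers was called in the interaction of genotype and plasmid. Macrophage markers were higher for 10 of 10 genes within KO livers and lower for 8 of 10 within WT livers. Lymphocyte markers were higher for 4 of 6 within KO livers and lower for 6 of 6 within WT livers. Their part in the differences of the cholesterol genes was not tested.

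**Figure D3:**
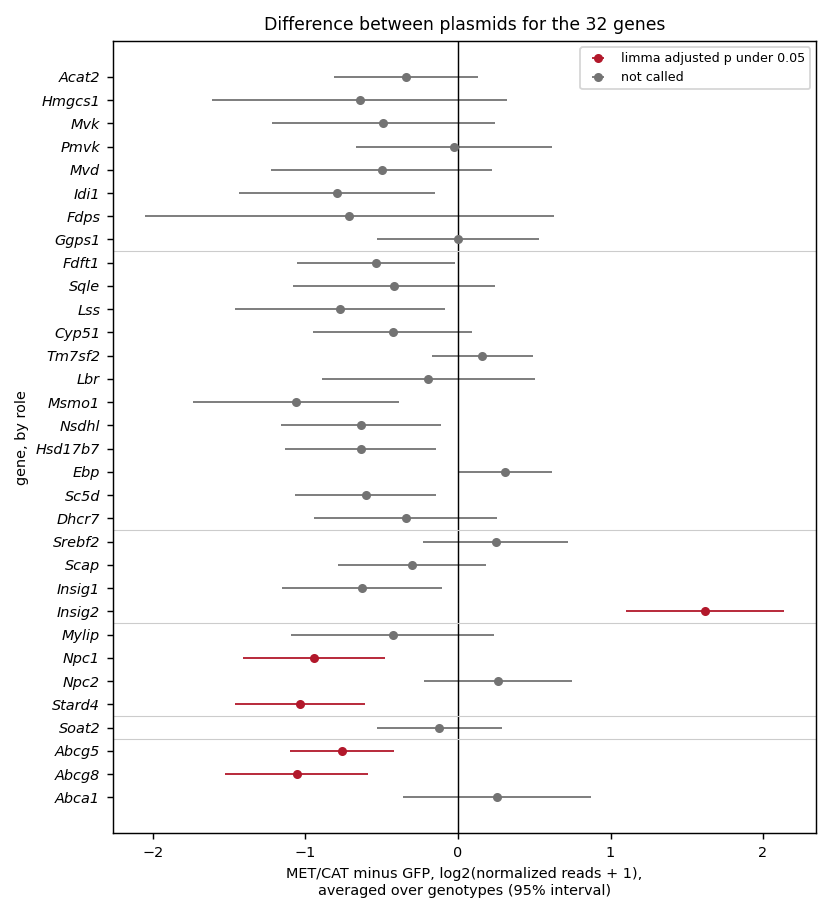
MET/CAT minus GFP difference of each of the 32 genes (rows, by role) on the log2(normalized reads + 1) scale, averaged over genotypes, with the 95% interval from limma; red marks an adjusted p under 0.05. Insig2 is the red point on the right, at 1.62, and the 4 red points on the left lie between -0.76 and -1.06.

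The mevalonate arm had all 8 differences below 0 in that comparison, none called, with a median of -0.49. Acat2, which joins acetyl-CoA units, averaged 2293 ± 907 in KO MET/CAT and 2519 ± 693 in WT MET/CAT livers, against 2719 ± 355 in KO GFP and 3173 ± 785 in WT GFP livers. Hmgcs1, which makes HMG-CoA, averaged 4838 ± 2668 in KO MET/CAT and 11198 ± 5524 in WT MET/CAT livers, against 11586 ± 5508 in KO GFP and 13580.3 ± 10825 in WT GFP livers. The spread of Hmgcs1 within WT GFP livers, from 3299 to 24878 normalized reads, was wider than its difference between groups. Mvk, mevalonate kinase, averaged 841 ± 546 in KO MET/CAT and 1379 ± 669 in WT MET/CAT livers, against 1085 ± 204 in KO GFP and 1675 ± 485 in WT GFP livers. Pmvk, the next kinase, averaged 2405 ± 1059 in KO MET/CAT and 3014 ± 1557 in WT MET/CAT livers, against 1992 ± 585 in KO GFP and 3330 ± 1003 in WT GFP livers. Mvd, the decarboxylase that yields the isoprenoid unit, averaged 923 ± 439 in KO MET/CAT and 1224 ± 496 in WT MET/CAT livers, against 1008 ± 424 in KO GFP and 2232 ± 1056 in WT GFP livers. For Mvk, Pmvk and Mvd the MET/CAT and GFP libraries overlapped, in KO and in WT livers. Idi1, which isomerises the unit, averaged 4331 ± 2652 in KO MET/CAT and 6173 ± 2304 in WT MET/CAT livers, against 9231 ± 1035 in KO GFP and 7722 ± 3021 in WT GFP livers, and had the most negative averaged difference of the arm, -0.79 (limma adjusted p = 0.173).

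Fdps, which makes farnesyl pyrophosphate, was low for an enzyme of this pathway: it averaged 55.4 ± 52.3 in KO MET/CAT and 124 ± 66.0 in WT MET/CAT livers, against 96.9 ± 33.5 in KO GFP and 103 ± 57.5 in WT GFP livers. KO MET/CAT replicate 1 held 3 reads of it, which is at the floor of 3 reads used here, and 26.7% of its exon bases overlap Gm43738 on the same strand, so its level here is uncertain. Ggps1, which makes geranylgeranyl pyrophosphate for protein prenylation, averaged 59.1 ± 9.56 in KO MET/CAT, 58.9 ± 24.3 in WT MET/CAT, 53.9 ± 9.21 in KO GFP and 63.1 ± 15.8 in WT GFP livers, the smallest difference between plasmids of the 20 enzymes.

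In the sterol arm 10 of 12 differences were below 0 and none was called, with a median of -0.48. Fdft1, squalene synthase, averaged 3561 ± 1329 in KO MET/CAT and 4949.6 ± 1774 in WT MET/CAT livers, against 5325 ± 984 in KO GFP and 6554 ± 1906 in WT GFP livers; 774 of its exon bases overlap the abundant Ctsb on the opposite strand. Sqle, squalene epoxidase, averaged 1878 ± 1221 in KO MET/CAT and 3021 ± 579 in WT MET/CAT livers, against 3165 ± 1051 in KO GFP and 2945 ± 1064 in WT GFP livers. Lss, which closes the sterol rings to lanosterol, had 269, 493 and 893 normalized reads in KO MET/CAT livers and 1496, 1849 and 1008 in WT MET/CAT livers, against 1383, 1460.1 and 2161 in KO GFP livers and 1314, 637 and 2271 in WT GFP livers. The 3 KO MET/CAT libraries were lower than all libraries of WT MET/CAT and KO GFP livers, while WT GFP replicate 2 lay among them. Cyp51, the lanosterol demethylase, averaged 5289 ± 1969.6 in KO MET/CAT and 6693 ± 2454 in WT MET/CAT livers, against 8093 ± 1913 in KO GFP and 7591 ± 2401 in WT GFP livers. Tm7sf2 and Lbr both reduce the C14 double bond of the sterol ring. Tm7sf2, of whose exon bases 532 overlap Vps51 on the same strand, averaged 6148 ± 957 in KO MET/CAT, 7335 ± 2251 in WT MET/CAT, 5413 ± 154 in KO GFP and 6499 ± 1079 in WT GFP livers. Lbr, also a protein of the nuclear envelope, averaged 74.1 ± 12.7 in KO MET/CAT, 89.4 ± 43.4 in WT MET/CAT, 139 ± 83.1 in KO GFP and 65.2 ± 22.4 in WT GFP livers. Per kilobase of transcript, Tm7sf2 was the highest of the 32 genes in 3 of 4 groups and Lbr was among the 3 lowest in all 4.

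Msmo1, Nsdhl and Hsd17b7 together remove the C4 methyl groups. Msmo1 averaged 2299 ± 1346 in KO MET/CAT and 3750.2 ± 1243 in WT MET/CAT livers, against 5791 ± 1862 in KO GFP and 6162 ± 2629 in WT GFP livers; its averaged difference of -1.06 (SE 0.31) matched that of Abcg8 in size but missed the threshold (limma adjusted p = 0.0813). Nsdhl averaged 856 ± 478 in KO MET/CAT and 1471 ± 438 in WT MET/CAT livers, against 1905 ± 236 in KO GFP and 1422 ± 323 in WT GFP livers. Hsd17b7 averaged 512 ± 182 in KO MET/CAT and 671 ± 129.5 in WT MET/CAT livers, against 1061 ± 323 in KO GFP and 809 ± 307 in WT GFP livers. Nsdhl and Hsd17b7 each gave -0.64, neither of them called. Of the last steps, Ebp, the sterol isomerase, averaged 7712 ± 894 in KO MET/CAT, 8091 ± 1919 in WT MET/CAT, 5274 ± 600 in KO GFP and 7588 ± 863 in WT GFP livers, and its difference of 0.31 was the highest of the 20 enzymes (limma adjusted p = 0.265). Sc5d, the desaturase, averaged 5868 ± 900 in KO MET/CAT and 7620.5 ± 2346 in WT MET/CAT livers, against 9606 ± 1764 in KO GFP and 11032 ± 4566 in WT GFP livers. Dhcr7, the last reductase of one route, averaged 2009 ± 815 in KO MET/CAT and 3549 ± 1307 in WT MET/CAT livers, against 3274 ± 983 in KO GFP and 3416 ± 1443 in WT GFP livers. Scaling mattered for the lean of all genes: 333 genes were called higher and 194 lower, against 224 and 424 once library totals were made equal, a step that shifted the median over all genes by -0.16, and the 5 members kept their calls and directions there. Under edgeR the averaged comparison called the same 5 members, beside 385 genes higher and 234 lower of 13871. DESeq2 added Msmo1 and Sc5d, beside 663 genes higher and 476 lower of 13856, so it called more genes of all kinds.

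The enzymes spread widely between replicates. The ratio of the highest to the lowest of 3 libraries had a median over the 20 enzymes of 2.54 in KO MET/CAT, 2.08 in WT MET/CAT, 1.59 in KO GFP and 2.12 in WT GFP livers, where the 4127 genes with a mean of at least 500 normalized reads had medians of 1.33, 1.42, 1.47 and 1.34 in the same groups. KO MET/CAT replicate 1 was the lowest library of its group for 19 of 20 enzymes, with a mean deviation of -1.26 on the log2 scale from each gene's mean over 12 libraries. WT GFP replicate 3 was the highest of its group for 16 and WT GFP replicate 2 the lowest for 16, and WT MET/CAT replicate 3 was the lowest of its group for 14. The 12 other members had median ratios of 1.66 in KO MET/CAT, 1.83 in WT MET/CAT, 1.82 in KO GFP and 1.57 in WT GFP livers, so in KO GFP livers they spread more than the enzymes. The 12 fatty acid synthesis genes listed for comparison also had KO MET/CAT replicate 1 lowest (a mean deviation of -1.13) and WT GFP replicate 3 highest (0.88). These extremes were thus not particular to the cholesterol enzymes, but other libraries were ordered differently. KO MET/CAT replicate 2 had a mean deviation of 0.63 for the fatty acid genes and -0.37 for the enzymes. WT GFP replicate 1 had -0.50 and 0.29. Some other members ran against the order of the enzymes. KO MET/CAT replicate 1 was the highest of its group for Abcg5, and WT MET/CAT replicate 3 the highest of its group for Insig2. WT GFP replicate 3, by contrast, was the highest of its group for Insig2 and for most enzymes.

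**Figure D4:**
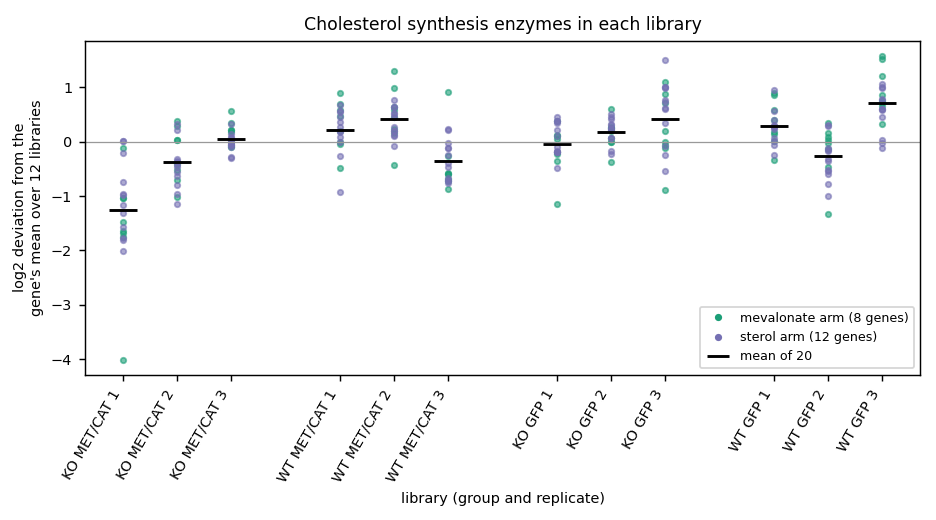
Log2 deviation of each synthesis enzyme from its mean over 12 libraries (vertical axis), for each library in 4 groups (horizontal axis), with the mean of the 20 enzymes as a bar. KO MET/CAT replicate 1 sits lowest, with a mean of -1.26, while the mean of KO MET/CAT replicate 3 is 0.06.

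Within the KO livers, MET/CAT against GFP gave 4 called members of 32, 1 higher and 3 lower, where 1.25% of all genes were called (0.858% higher and 0.397% lower). Npc1 fell, with a difference of -1.59 (SE 0.31, limma adjusted p = 0.0267). Stard4 fell, with -1.44 (SE 0.28, limma adjusted p = 0.0268), and so did Abcg8, with -1.49 (SE 0.31, limma adjusted p = 0.0371). Insig2 rose by 1.66 (SE 0.34, limma adjusted p = 0.0370). Abcg5, at -0.87 (SE 0.22), was next and was not called (limma adjusted p = 0.0728). Among the enzymes 16 of 20 had values below 0 (all genes 46.8%), and no enzyme was called. Lss stood at -1.73, Fdps at -1.64, Msmo1 at -1.46 and Nsdhl at -1.30, with Fdps at the floor of 3 reads in KO MET/CAT replicate 1. Of the 32 members 13 had an unadjusted p under 0.05, beside 20.3% of all genes. The KO groups did not overlap for 12 members that were lower and 3 that were higher with MET/CAT (10.7% and 14.4% of all genes), the 3 being Insig2, Ebp and Npc2. The count of 4 was 0 without KO GFP replicate 1, KO GFP replicate 3, WT GFP replicate 1, KO MET/CAT replicate 1 or KO MET/CAT replicate 2, and 1 without KO GFP replicate 2, while the differences stayed close in size over the 12 fits that each leave out 1 library (Npc1 -1.80 to -1.30, Stard4 -1.63 to -1.26, Abcg8 -1.73 to -1.26, Insig2 1.54 to 1.79). Without KO MET/CAT replicate 1, 14 of 20 enzymes were below 0, with a median of -0.37 beside -0.73 with it. All genes split into 119 higher and 55 lower calls here, against 83 and 108 with equal library totals, 109 and 89 with quantile normalization, and 158 and 128 with the length trend removed. With equal library totals or quantile normalization Insig2 was not called and Abcg5 was, and with only the 6 KO libraries in the fit Npc1 was not called. Neutrophil markers were higher for 6 of 6 genes (3 called), macrophage markers for 10 of 10 (1 called) and cholangiocyte markers for 4 of 4 (none called). T and B lymphocyte markers were higher for 4 of 6 genes and lower for 2 (none called). The part of these markers was not tested.

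Within the WT livers no member was called, with 47 genes (0.339%) called in all (0.209% higher and 0.13% lower). Of the 32 members 4 had an unadjusted p under 0.05, beside 14.8% of all genes. The tools edgeR and DESeq2 each called 1 member, Insig2. Over all genes edgeR called 52 higher and 21 lower of 13871, and DESeq2 354 higher and 224 lower of 13856. Insig2 was higher by 1.58 (SE 0.34, limma adjusted p = 0.0612) with no overlap between the WT groups, and it passed the threshold without WT MET/CAT replicate 2 or without KO GFP replicate 3. Abcg5 differed by -0.65 (SE 0.22, limma adjusted p = 0.203) and Insig1 by -0.94 (SE 0.34, limma adjusted p = 0.226), and the WT groups did not overlap for either (10.3% of all genes were lower and 10.5% higher in this way). Stard4 at -0.62 (SE 0.28) and Abcg8 at -0.63 (SE 0.31) had limma adjusted p of 0.318 and 0.365. Without WT MET/CAT replicate 1 the 1 call was Abca1, in a fit that called 225 of all 13871 genes higher and 147 lower. All genes split into 29 higher and 18 lower calls, against 27 and 44 with equal library totals. Of the 32 members 20 had values below 0 (all genes 51.4%), and of the 20 enzymes 11 did, with a median of -0.17. That lean turned with single libraries: 17 of 20 enzymes were below 0 without WT GFP replicate 2 (median -0.41), 9 without WT GFP replicate 3 (median 0.01) and 8 without WT MET/CAT replicate 3 (median 0.11), and 16 were with equal library totals. Neutrophil markers were higher with MET/CAT for 6 of 6 genes (median 2.86, 1 called). T and B lymphocyte markers were lower for 6 of 6 (median -1.46, none called) and macrophage markers for 8 of 10 (median -0.30, none called). The part of these markers was not tested.

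**Figure D5:**
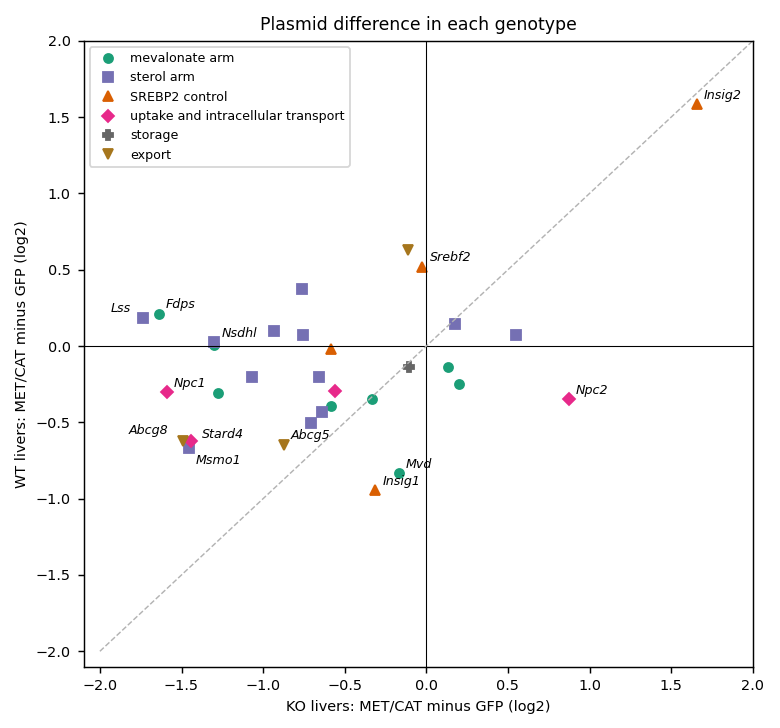
MET/CAT minus GFP difference on the log2 scale in KO livers (horizontal axis) and in WT livers (vertical axis) for the 32 genes, by role; the dashed line marks equal differences. Insig2 lies near the line at 1.66 in KO and 1.58 in WT livers. Lss, Fdps and Npc1 lie left of it, with -1.73, -1.64 and -1.59 in KO livers. KO MET/CAT replicate 1 held only 3 reads of Fdps.

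The difference between the 2 plasmid effects was tested by the interaction of genotype and plasmid, and no member was called (0.0% of genes; 4 members had an unadjusted p under 0.05, beside 15.5% of all genes, and edgeR and DESeq2 called none of them). A negative value means a plasmid difference lower in KO than in WT livers. The smallest p were those of Lss, -1.92 (SE 0.64), Npc1, -1.29 (SE 0.43), Nsdhl, -1.33 (SE 0.49), Npc2, 1.22 (SE 0.45), and Stard4, -0.82 (SE 0.40), with limma adjusted p from 0.265 to 0.332. So the 3 members that were called lower in KO and not in WT livers, Npc1, Stard4 and Abcg8, were not shown to differ between genotypes. The interaction of Insig2 was 0.07, with a 95% interval from -0.97 to 1.11.

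No member was called between KO and WT livers with either plasmid. In MET/CAT livers, KO against WT, 0 of 32 were called (0.00721% of genes, 1 gene, Sirt2; 2 members had an unadjusted p under 0.05, beside 7.76% of all genes; edgeR and DESeq2 called 0 members). The values leaned one way: 28 of 32 members and 19 of 20 enzymes were below 0 (all genes 50.3%), with a median of -0.41 over the members. Lss at -1.52 (SE 0.45), Nsdhl at -0.89 (SE 0.35), Fdps at -1.86 (SE 0.88), Dhcr7 at -0.83 (SE 0.40) and Sqle at -0.90 (SE 0.44) had the smallest p, with limma adjusted p from 0.496 to 0.639, and Lss was the only member whose KO and WT libraries did not overlap (7.01% of all genes were lower and 6.82% higher in this way). That lean drew on KO MET/CAT replicate 1, without which 22 members and 15 of 20 enzymes were below 0, Lss stood at -1.08, Nsdhl at -0.49, Fdps at -0.51, Dhcr7 at -0.47 and Sqle at -0.35, and the median of the members was -0.21.

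In GFP livers, KO against WT, 0 members were called (0.00721% of genes; 6 members had an unadjusted p under 0.05, beside 15.5% of all genes; edgeR and DESeq2 called 0 members), and 15 of 32 were below 0 (all genes 55.1%). The count was 23 without WT GFP replicate 2, 19 without KO GFP replicate 3 and 11 without WT GFP replicate 3. It was 11 with the length trend removed and 10 with equal library totals, so the members had no steady lean here. The groups did not overlap for Lbr, Abcg5 and Abcg8, which were higher in KO GFP livers (9.15% of all genes were), and for Pmvk, Tm7sf2, Ebp and Npc2, which were lower (13.0%). Npc2 at -0.90 (SE 0.32), Ebp at -0.52 (SE 0.20), Mvd at -1.14 (SE 0.48), Insig1 at -0.80 (SE 0.34) and Npc1 at 0.69 (SE 0.31) had limma adjusted p from 0.287 to 0.313. Npc2 was lowest in KO GFP replicate 3, at 1217 normalized reads beside 2816 and 3182 in KO GFP replicates 1 and 2, and Npc1 was highest there. Without that library Npc2 differed by -0.46 and Npc1 by 0.40. Macrophage markers were lower in KO GFP livers for 10 of 10 genes (median -1.44), T and B lymphocyte markers for 6 of 6 (median -1.55) and cholangiocyte markers for 4 of 4 (median -0.34), none called, and their part was not tested. Averaged over plasmids, KO against WT gave 0 calls (0.0144% of genes; 1 member had an unadjusted p under 0.05, beside 8.11% of all genes; edgeR and DESeq2 called 0 members). Mvd at -0.81 (SE 0.34), Ebp at -0.29 (SE 0.14), Mvk at -0.69 (SE 0.34), Insig1 at -0.49 (SE 0.24) and Pmvk at -0.52 (SE 0.30) had limma adjusted p from 0.584 to 0.660, and all 8 mevalonate genes were below 0 beside 56.5% of all genes; under equal library totals the count of members below 0 was 19, against 26 in the fit as reported. No member had all 6 KO libraries above or below all 6 WT libraries (0.123% of all genes were higher and 0.26% lower in this way).

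Other genes of cholesterol handling, 25 past the minimum of 26 listed, were read the same way. Averaged over genotypes, 3 of 25 were called with MET/CAT, 1 higher and 2 lower, where 3.8% of all genes were called (2.4% higher and 1.4% lower). Erlin1, an endoplasmic reticulum protein of the sterol-dependent degradation machinery, averaged 559 ± 129 in MET/CAT and 966 ± 72.5 in GFP livers (SD, n = 6 each), a difference of -0.81 (SE 0.13, limma adjusted p = 0.00371). Nceh1, a cholesteryl ester hydrolase, averaged 278 ± 46.6 in MET/CAT and 549 ± 140.4 in GFP livers (-0.96, SE 0.16, limma adjusted p = 0.00647). Gramd1a, which moves cholesterol from the plasma membrane to the endoplasmic reticulum, averaged 401 ± 97.2 in MET/CAT and 254 ± 48.8 in GFP livers (0.65, SE 0.16, limma adjusted p = 0.0416). In KO livers Nceh1 (-1.27, limma adjusted p = 0.0211) and Gramd1a (1.05, limma adjusted p = 0.0429) were called, and in WT livers Erlin1 (-0.97, limma adjusted p = 0.0393). Of all genes 1.25% were called in KO livers and 0.339% in WT livers. None of the 25 was called between genotypes or in the interaction. In GFP livers the 2 smallest p between KO and WT were those of Soat1, the cholesterol acyltransferase of macrophages and other tissues, at -1.03, and Mbtps1, a protease that cuts SREBPs, at 0.50, both with a limma adjusted p of 0.287.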

How the data were processed

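RNA of whole mouse liver was sequenced in 12 libraries. Per the submitters' processing notes, the reads were handled with HISAT2 2.0.4 and HTSeq 0.11.2 on GRCm38. The sources used here name neither the strand setting nor the tool that normalized the counts. The deposited signal values are gene counts divided by 1 factor per library, and whole reads could be recovered for 100% of values within 0.01 reads.

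Genes reaching a value of 10 in 3 or more libraries (13871 of 47263 rows; 23020 had no read) were tested with limma 3.58.1 (R 4.3.3, limma-trend) on log2(value + 1), with 4 group means over all 12 libraries and no block. Fold changes on that scale understate changes of low genes. P-values are two-sided and Benjamini-Hochberg adjusted over all 13871 genes, with a threshold of 0.05, in each of 7 comparisons. edgeR 4.0.16 and DESeq2 1.42.0 on the recovered reads, 2 other pseudocounts, 2 other filters, 2 scalings, library weights, a replicate block, a length correction, the 6 libraries compared alone and each library left out were the alternatives. The code was tested on simulated data. Levels per kilobase use 1 principal transcript per gene of GENCODE M21, whose symbols matched 47086 rows. Promoter sequences are from RefSeq GRCm38.p6.

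The members and lists were chosen with earlier results of these data known. All 32 members are named; fold change, SE and adjusted p are given for each called member or, with fewer than 5 called, for the 5 smallest p. Values in every library are given for the members the results turn on. Libraries held 18208879 to 24352961 reads; without molecular identifiers, floors cover counting error only.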

Additional observations from a re-analysis of the deposited data

How the results depend on the processing

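Averaged over genotypes, Insig2, Stard4, Abcg5 and Abcg8 kept their calls and directions under all 11 alternatives and with each of 12 libraries left out; the count of called members was 10 with library quality weights and 4 to 7 with 1 library left out. Those weights rest on few libraries (7.25 for WT GFP replicate 1 and 6.06 for KO GFP replicate 1, against 0.240 for KO GFP replicate 3). With them the counts of members were also 10 within KO livers, 3 within WT livers, 10 between KO and WT GFP livers and 2 in the interaction. All genes called with them, of 13871, numbered 1635, 2615, 4575 and 1374 in the same order, and 2377 averaged over genotypes. The share of members called was above that of all genes within KO livers and averaged over genotypes. It was near that share between KO and WT GFP livers, and below it within WT livers and in the interaction. Within KO livers DESeq2 called 9 members, beside 486 genes higher and 442 lower of 13856, and leaving out 1 library gave 0 to 5 members. Within WT livers edgeR, DESeq2, the fit with the length trend removed and leaving out 1 library (range 0 to 1) gave up to 1. The cause was not tested. No direction reversed among called members.

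Replicate numbers did not pair the libraries: 5 of 18 same-numbered pairs had a correlation over 0.1 (-0.20 to 0.28), and 12 of 36 best matches were with the own number. With the replicate block, 1 member (Insig2) was called within WT livers, 4 within KO livers and 5 averaged over genotypes.

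Counts over all genes moved more. With library weights they were 4575 between KO and WT GFP livers (1 as reported), 2 between KO and WT MET/CAT livers (1), 2615 within WT livers (47), 1635 within KO livers (174), 1374 in the interaction (0), 160 for KO against WT averaged (2) and 2377 for MET/CAT against GFP averaged (527). DESeq2 gave 121, 34, 578, 928, 169, 39 and 1139 in the same order. The 3 libraries per group limit what could be called.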

Other observations

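Averaged over genotypes, the 12 fatty acid synthesis genes listed beside the cholesterol genes had a median MET/CAT minus GFP difference of -0.03 (log2). Of the 12, 8 were below 0 (48.1% of all genes were) and 1 was called lower in limma (1.4% of all genes were). That gene was Srebf1, which encodes the SREBP1 proteins of fatty acid synthesis and was singled out after its values were seen. It averaged 4538 ± 1252 normalized reads in MET/CAT livers and 6954 ± 1105 in GFP livers (SD, n = 6 each), a difference of -0.65 (SE 0.16, limma adjusted p = 0.0349). No gene of the list was called in the other 6 comparisons.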
